A study of Mus musculus with 2 samples.

Results

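The loci of Pou5f1, Nanog and Sox2, which encode transcription factors at the core of the pluripotency network, were examined for DNA methylation in undifferentiated and differentiated F9 cells, an embryonal carcinoma line of the mouse. Members were chosen by position on GRCm38: 60 kb around Pou5f1 (chromosome 17, 35480000 to 35540000), 60 kb around Nanog (chromosome 6, 122680000 to 122740000) and 170 kb around Sox2 with its distal control region (chromosome 3, 34620000 to 34790000). They held 246 of the 1370254 sites listed in either library, 75 at Pou5f1, 45 at Nanog and 126 at Sox2. There was 1 library of undifferentiated cells kept on gelatin-coated plates, and 1 library of cells labelled D4, at day 4 of differentiation in low-attachment dishes with 1 µM retinoic acid. Both came from the same line, and the sample descriptions call both untreated. The series asked how enhancers of pluripotency genes are regulated in embryonal carcinoma cells. With 1 library per state, no difference could be checked against replicates, and p-values speak of the libraries only, not of the states.

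Pou5f1 encodes Oct4, a POU-domain factor that binds DNA together with the HMG-box factor Sox2, and the pair activates Nanog, a homeodomain factor, as well as their own genes. Each gene is driven by enhancers upstream of its start, and Sox2 also by a cluster of enhancers far downstream. In normal development these regulatory regions lose activity as cells leave pluripotency and can then become methylated, and retinoic acid drives F9 cells towards endoderm-like fates. In methylRAD, the enzyme FspEI cuts beside methylated cytosines and releases short fragments, so that reads at a site rise with its methylation. A site in the tables is a CCGG, which holds a CpG, or a CCAGG or CCTGG, whose methylated cytosine lies outside CpG. Every listed site had at least 5 counts, so an unlisted site had 0 to 4 counts and cannot be read as unmethylated.

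The promoter sequences show which sites the assay could read beside the gene starts. They are the 250 bases before the first annotated start of each gene on the plus strand of GRCm38.p6, from RefSeq, at chr17:35505782-35506031, chr6:122707239-122707488 and chr3:34649745-34649994. All 3 genes matched an entry. A second start is annotated for Pou5f1, with the 250 bases at chr17:35508557-35508806 before it, and for Nanog, whose second window overlaps the one printed. Neither second window held a CCGG, and distances are given from the first start. Capitals mark the motifs searched, CCGG, CCAGG and CCTGG. CCGG is its own reverse complement and CCAGG that of CCTGG, so both strands are covered.
Pou5f1: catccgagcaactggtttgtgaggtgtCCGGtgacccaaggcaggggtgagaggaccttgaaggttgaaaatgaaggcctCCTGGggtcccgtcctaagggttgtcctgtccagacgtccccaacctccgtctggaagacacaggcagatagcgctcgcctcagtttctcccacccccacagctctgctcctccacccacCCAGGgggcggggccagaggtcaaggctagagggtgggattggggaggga
Nanog: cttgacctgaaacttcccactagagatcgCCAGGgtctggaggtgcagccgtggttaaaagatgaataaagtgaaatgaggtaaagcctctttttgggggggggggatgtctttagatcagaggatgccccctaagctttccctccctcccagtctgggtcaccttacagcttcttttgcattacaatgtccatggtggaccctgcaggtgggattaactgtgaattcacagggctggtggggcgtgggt
Sox2: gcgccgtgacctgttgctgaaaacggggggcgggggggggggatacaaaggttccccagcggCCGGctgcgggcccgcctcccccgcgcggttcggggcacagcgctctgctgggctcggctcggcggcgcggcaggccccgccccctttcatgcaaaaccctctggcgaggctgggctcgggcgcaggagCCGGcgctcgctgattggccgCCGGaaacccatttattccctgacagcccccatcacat
Of these bases 62% at Pou5f1, 52% at Nanog and 72% at Sox2 were G or C, with 8, 3 and 27 CpGs. The Sox2 promoter held 3 CCGG motifs, 188, 59 and 38 bases before the start, and none was listed in either library. Pou5f1 held 1 CCGG, 223 bases before the start, at position 35505809. It was unlisted in the undifferentiated library and listed with 5 counts, the lowest possible value, in the differentiated library. Nanog held no CCGG there, so CpG methylation of these bases was not measured. The CCAGG and CCTGG motifs in the Pou5f1 and Nanog sequences were unlisted in both libraries. Among 32851 promoter windows of 300 bases, which run 50 bases past the start, 52.8% held a CCGG and 70.6% a CCAGG or CCTGG. Of the 39736 CCGG positions in those windows, 10.3% were listed before and 11.7% after differentiation. An unlisted CCGG was thus the usual state of a promoter in both libraries.

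The undifferentiated library held 20550450 counts, 16687588 of them at CCGG sites, and the differentiated library 21291239 and 15705436. Levels are given as counts per 1000000 CCGG counts of the library. On this scale 5 counts correspond to 0.30 in undifferentiated and 0.32 in differentiated cells. Where a site was unlisted in 1 library it was given 4 counts there, the most it can have had, so that the ratio is a lower bound. Intervals and tests cover counting error only, because 1 library per state leaves no replicate spread. They treat reads as independent, although PCR can yield several reads from 1 molecule, so they may be too narrow even for that error.

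**Figure D1:**
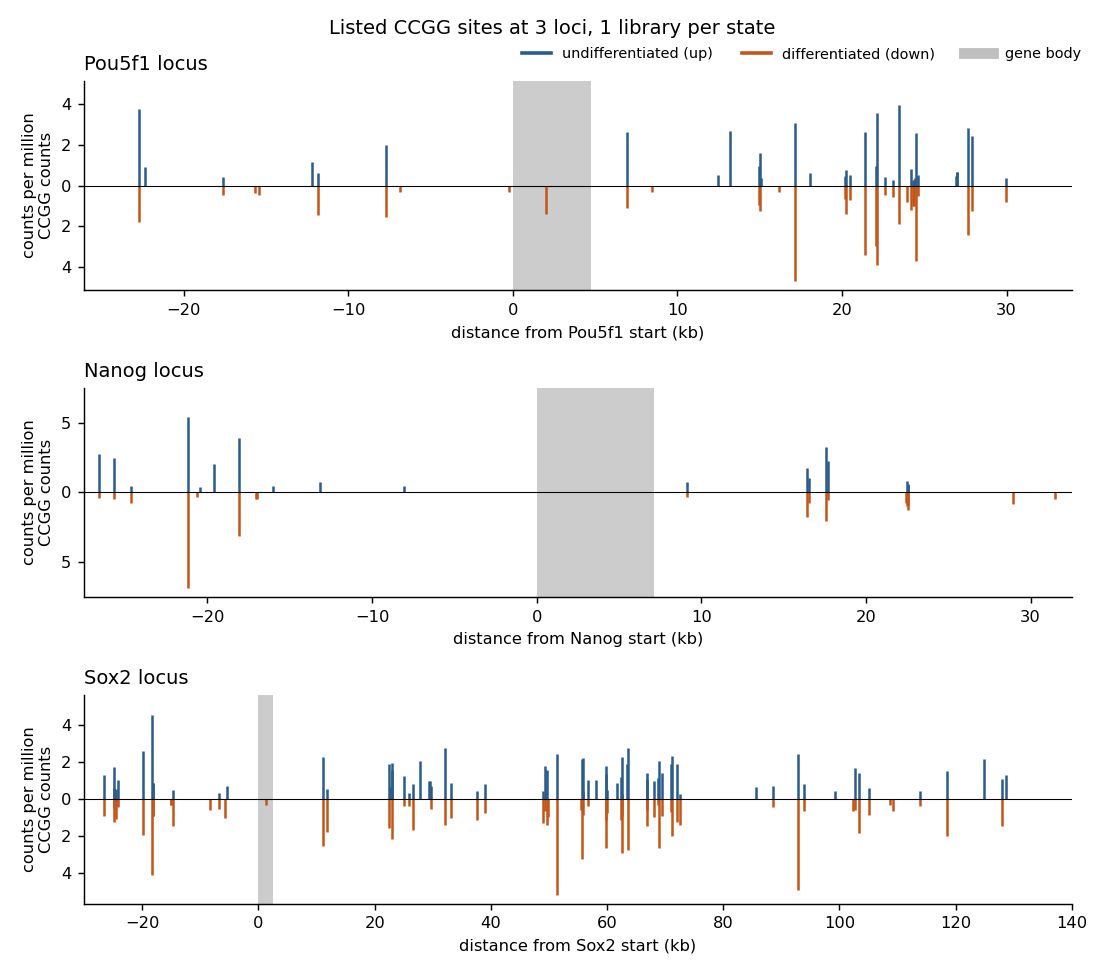
Listed CCGG sites by distance from the gene start in kb (x axis) and level in counts per 1000000 CCGG counts (y axis), with undifferentiated values drawn upwards and differentiated values downwards. The grey gene bodies hold no undifferentiated bar, and 1 differentiated bar each at Pou5f1 and Sox2.

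All 3 genes lay in stretches without a listed CCGG site in undifferentiated cells. The region of a gene is counted here from 5 kb before its start to its end, 9.75 kb for Pou5f1, 12.1 kb for Nanog and 7.47 kb for Sox2. None of these regions had a listed CCGG site in the undifferentiated library. In the differentiated library Pou5f1 had 2, Sox2 had 1 and Nanog had none. Over 17492 protein-coding genes, 11.8% of regions had no listed CCGG site before and 12.3% after differentiation, and 204 (1.17%) had none in the undifferentiated but at least 1 in the differentiated library. The median length of all these regions was 21.9 kb, above that of each of the 3 genes. The genome sequence between the sites was not used here, so the number of CCGG motifs in each stretch is known only for the promoter windows.

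The stretches were of similar length in undifferentiated cells. The stretch around the Pou5f1 start was 14.7 kb long, from a site with 33 counts 7.71 kb upstream to a site with 44 counts 6.96 kb downstream. Around the Nanog start it measured 17.2 kb, between sites of 8 and 12 counts. Around the Sox2 start it measured 16.5 kb, between sites of 12 and 38 counts. The median over 17273 protein-coding gene starts was 6.54 kb, and 21.6%, 17.6% and 18.6% of starts lay in stretches at least as long as those of Pou5f1, Nanog and Sox2. In the differentiated library the stretch around Pou5f1 shortened to 2.24 kb and that around Sox2 to 7.11 kb, while that around Nanog was 26.1 kb. The ends that moved at Pou5f1 and Sox2 included sites of 5 counts, so these lengths rest on sites at the listing minimum.

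Pou5f1 was the gene of the 3 whose own region differed most between the libraries. The CCGG site at position 35508049, 2.02 kb inside the gene, was unlisted in the undifferentiated library and had 22 counts in the differentiated library. It was at least 5.84-fold higher, with a log2 ratio of at least 2.55 (exact 95% interval with 4 counts in the undifferentiated library, 0.99 to 4.54). Fisher's exact test on the site against the rest of each CCGG total, adjusted by Benjamini-Hochberg over 763323 sites, gave an adjusted p of 0.00259. Of all CCGG sites tested, 23.5% were called, meaning an adjusted p under 0.05, with 11.6% higher and 11.9% lower after differentiation. It lies upstream of the second annotated Pou5f1 start and outside its promoter window. The gene table gives no exons, so whether the site is exonic was not determined. The same site was called under median-ratio scaling, with an adjusted p of 0.0052, and under the divisors of the deposited RPM values, with an adjusted p of 0.00861, by the same exact test.

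At non-CpG sites in and before Pou5f1, no CCAGG or CCTGG site of its region was listed in the undifferentiated library, and 4 were listed in the differentiated library with 40 counts in all. Those at 1.24 kb and 0.938 kb before the start had 8 counts each and lie in Gm32362, a neighbouring gene that runs the other way. The others lay at 0.631 kb inside Pou5f1 with 15 counts, and at 2.03 kb inside it with 9 counts. The last lies 16 bases from the CCGG site at 35508049 and can share reads with it, whereas the other 3 stand apart from any listed CCGG. None of the 4 passed Fisher's exact test among non-CpG sites, and across the genome 56.7% of non-CpG sites in the differentiated library were unlisted in the other. Adding the CCGG sites, the Pou5f1 region held 0 listed sites of any motif before and 6 after differentiation. Among protein-coding genes 1839 (10.5%) had a region with no listed site in the undifferentiated library, and 11 of the 17492 (0.0629%) combined this with 6 or more sites in the differentiated library. That minimum of 6 is the value of Pou5f1 itself and was set after it was seen, so the share is a description. The summed CCGG counts of the region, 8 against 27 with unlisted sites at 4, gave a log2 ratio of 1.84 (0.66 to 3.19) and an adjusted p of 0.00508 by Fisher's exact test over 23962 gene regions. It stayed called under both other scalings, with an adjusted p of 0.0118 by the exact test under the divisors. Both sites in the sum were listed in the differentiated library only. The ratio could thus only be above 0, and its direction was not tested, while the 8 counts are the most these sites can have had. This test called 34.4% of all gene regions, 21% higher and 13.4% lower. The single site at 35508049 held 22 of the 27 counts.

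Just past the gene end, a pair of adjacent non-CpG sites at 35511313 (CCTGG) and 35511322 (CCAGG), 5.28 kb from the start, had 6 counts each before and 26 counts each after differentiation. At this spacing they can come from the same reads. They did not pass Fisher's exact test against the non-CpG totals, but were called higher against the CCGG totals (log2 ratio 2.20, adjusted p 0.00776 each by the exact test), a scale on which 7.31% of all non-CpG sites were called. Of the non-CpG sites in the genome, 5.72% passed the test against the non-CpG totals, 1.18% higher and 4.53% lower. Against the CCGG totals 6.03% were called higher and 1.28% lower.

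**Figure D2:**
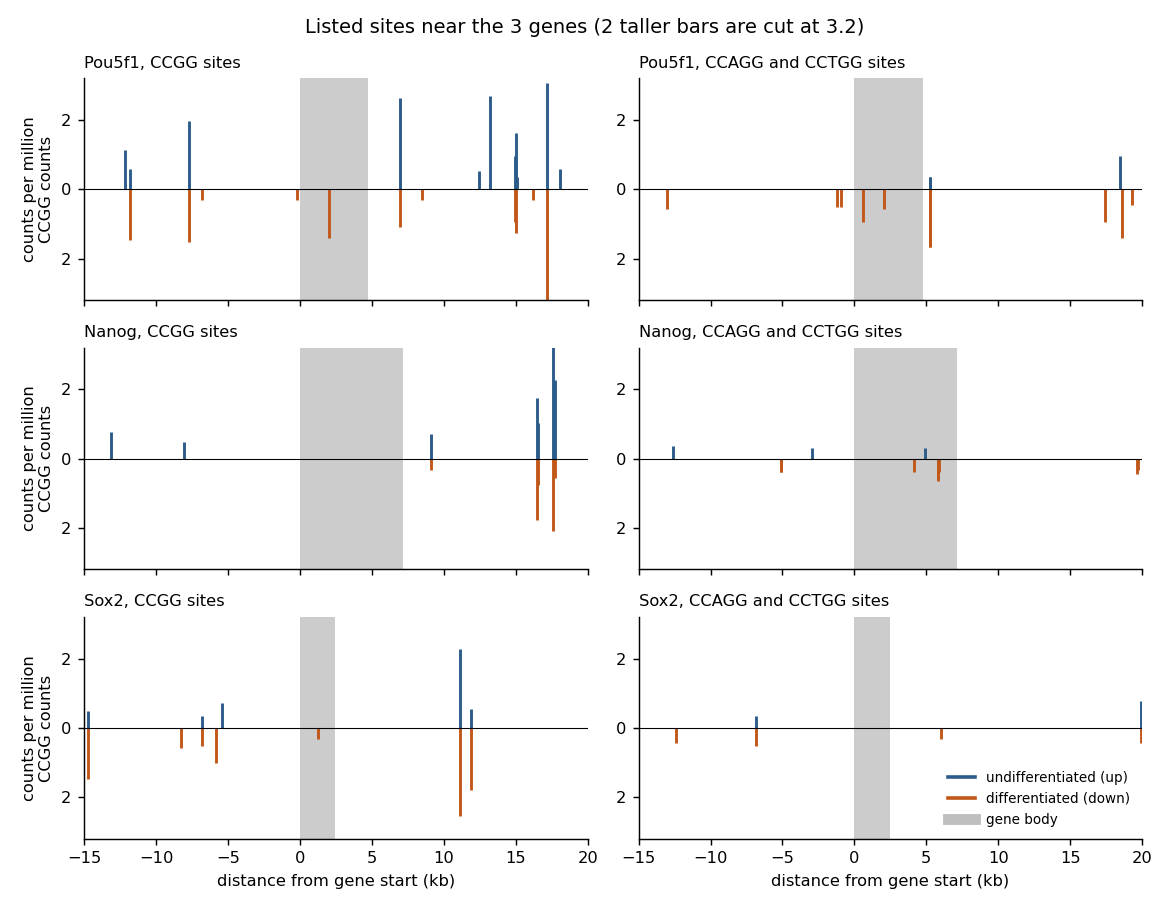
Listed sites from 15 kb before to 20 kb after each gene start, CCGG on the left and CCAGG or CCTGG on the right, with distance in kb on the x axis and level in counts per 1000000 CCGG counts on the y axis. At Pou5f1 only downward, differentiated bars fall on the gene and the 5 kb before it; at Nanog no CCGG bar does.

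Nanog kept a region with no listed CCGG site in either library. Non-CpG sites were listed there at or near the minimum. The undifferentiated library had 2, with 5 counts each, 2.96 kb before the start and 4.91 kb inside the gene. The differentiated library had 4, with 31 counts in all. A single site of 6 counts lay 4.18 kb inside the gene, and 3 sites between 5.84 and 5.86 kb inside it had 9, 10 and 6 counts. Those 3 lie close enough together to share reads. No position was listed in both libraries. Sox2 had no listed non-CpG site in its region in either library, and its only CCGG site, at position 34651271, 1.28 kb from the start, had 5 counts in the differentiated library. At these counts no difference in the Nanog or Sox2 region was detectable.

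The flanks of the 3 genes carried most of the signal. At Pou5f1, 35 CCGG sites were listed before and 33 after differentiation, 25 of them in both libraries, which is 71.4% and 75.8% of each list. At Nanog the numbers were 18 and 19 with 13 in both, or 72.2% and 68.4%. At Sox2 they were 70 and 66 with 55 in both, or 78.6% and 83.3%. Over the whole genome the shares were 79.9% and 84.9%. Median counts of listed CCGG sites were 13, 15.5 and 18.5 at Pou5f1, Nanog and Sox2 in the undifferentiated library, and 16, 12 and 15 in the differentiated library. The highest single site, 21.2 kb before Nanog, had 91 counts before and 109 after differentiation.

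Summed over a locus, CCGG levels differed between the libraries at Nanog and less at the other two. Pou5f1 had 789 and 715 listed counts, and with unlisted sites at 4 its level went from 49.2 to 48.1 (log2 ratio -0.03, exact 95% counting interval -0.18 to 0.11). Sox2 had 1545 and 1337 counts and levels of 95.2 and 89.0 (log2 ratio -0.10, interval -0.20 to 0.01). The Sox2 interval lay below 0 under median-ratio scaling (-0.36 to -0.15), the RPM divisors (-0.43 to -0.22), with unlisted sites at 0 (-0.23 to -0.01) and without the 1000 highest sites (-0.24 to -0.03). That of Pou5f1 lay below 0 under median-ratio scaling (-0.33 to -0.05) and the RPM divisors (-0.40 to -0.12). Among sites listed in both libraries the direction turned, with log2 ratios of 0.08 at Pou5f1 (-0.08 to 0.24) and 0.06 at Sox2 (-0.05 to 0.18). Nanog had 505 and 372 counts and levels of 31.7 and 25, which was 1.27-fold lower in the differentiated library (log2 ratio -0.34, interval -0.54 to -0.15). The median over 41061 windows of 60 kb was 0.04, with the central 90% from -0.64 to 0.59, and 13.9% of windows lay below Nanog. The median over 14953 windows of 170 kb was 0.04, and 24.8% lay below Sox2. The locus totals thus lay inside the usual range of windows of their size. The other scalings lower every log2 ratio by a constant, median-ratio scaling by 0.16 and the divisors of the RPM values by 0.23.

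Site by site, 32 of 139 tested CCGG sites in the loci were called (23.0%), beside 23.5% of all sites. The share was near the background. Of the called sites 10 were higher and 22 lower in the differentiated library, and the median log2 ratio of tested sites was -0.08, against 0.02 over all sites. Pou5f1 had 2 sites called higher and 5 lower of 39 tested. At Nanog none was called higher and 4 were called lower of 23, and at Sox2 8 were called higher and 13 lower of 77. Under median-ratio scaling the calls were 2 higher and 7 lower at Pou5f1, 0 and 5 at Nanog, and 5 and 16 at Sox2, while 35.9% of called sites in the genome were higher in place of 49.3%.

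**Figure D3:**
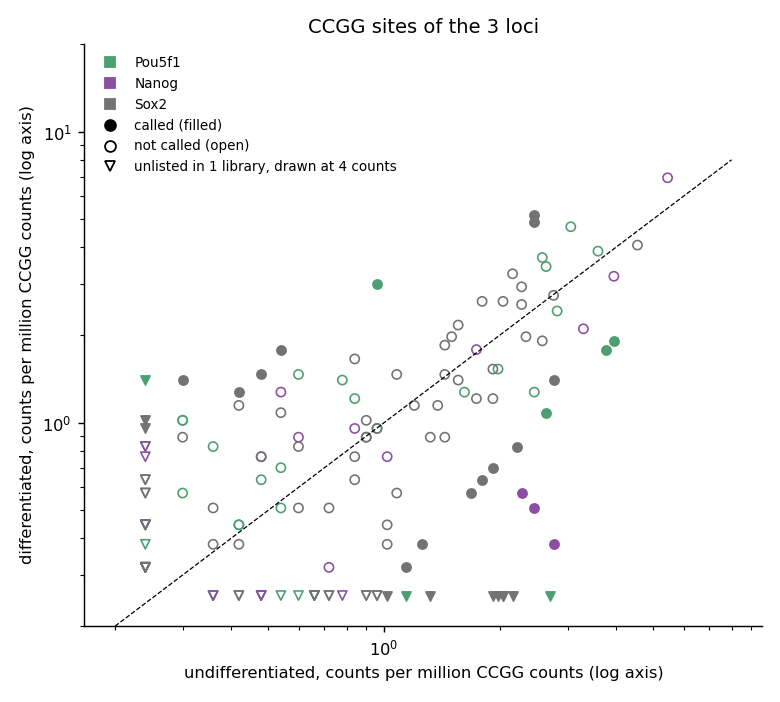
Level of each CCGG site in the undifferentiated (x axis) and differentiated (y axis) library, counts per 1000000 CCGG counts on log axes, by locus. Filled symbols are the 32 called sites, triangles are sites unlisted in 1 library and drawn at 4 counts, and more filled symbols lie below the dashed line of equality than above it.

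Around Pou5f1, the called falls lay on both sides of the gene. On the upstream side the site at 35483344, 22.7 kb before the start, had 63 and 28 counts, and the site at 35493855, 12.2 kb before the start, had 19 counts and was unlisted in the differentiated library. Downstream, the site at 35512990 within Tcf19, a neighbouring gene for a putative transcription factor, had 44 and 17 counts (log2 ratio -1.28, adjusted p 0.00921 by Fisher's exact test). The largest fall was at 35519241 within Cchcr1, which encodes a coiled-coil protein, from 45 counts to unlisted. It was at least 10.6-fold lower, with an adjusted p of 4.33e-07 by the same exact test. Cchcr1 also held the other site called higher, at 35528120, with 16 and 47 counts (log2 ratio 1.64, adjusted p 0.000662 by the exact test), and a site called lower at 35529502, with 66 and 30 counts. The 3 sites with the highest counts summed over both libraries all lay in Cchcr1 and none was called. They were at 35523206 with 51 and 74 counts, at 35528159 with 60 and 61 counts and at 35530525 with 43 and 58 counts.

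In 10 kb windows tiled along the chromosome, 31.7% of 185339 tested windows in the genome were called, 16.5% higher and 15.2% lower. Counts of windows include 4 for each unlisted site. Pou5f1 had 3 of 6 called. The window from 6 kb before to 4 kb after the Pou5f1 start was called higher, on the 2 sites described above (log2 ratio 1.84, adjusted p 0.00599 by Fisher's exact test). The next window downstream, from 4 to 14 kb, was called lower, with 102 and 30 counts over 4 sites (log2 ratio -1.68, adjusted p 1.37e-07 by the exact test). The farthest window upstream was also called lower, with 85 and 39 counts. The rise at the gene thus stood beside a fall in the next window. The window from 14 to 24 kb, with 346 and 386 counts, was not called, and its level went from 20.7 to 24.6. With 20 kb windows, 2 of 3 tested at Pou5f1 were called lower and none higher, beside 31.6% called of all such windows.

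**Figure D4:**
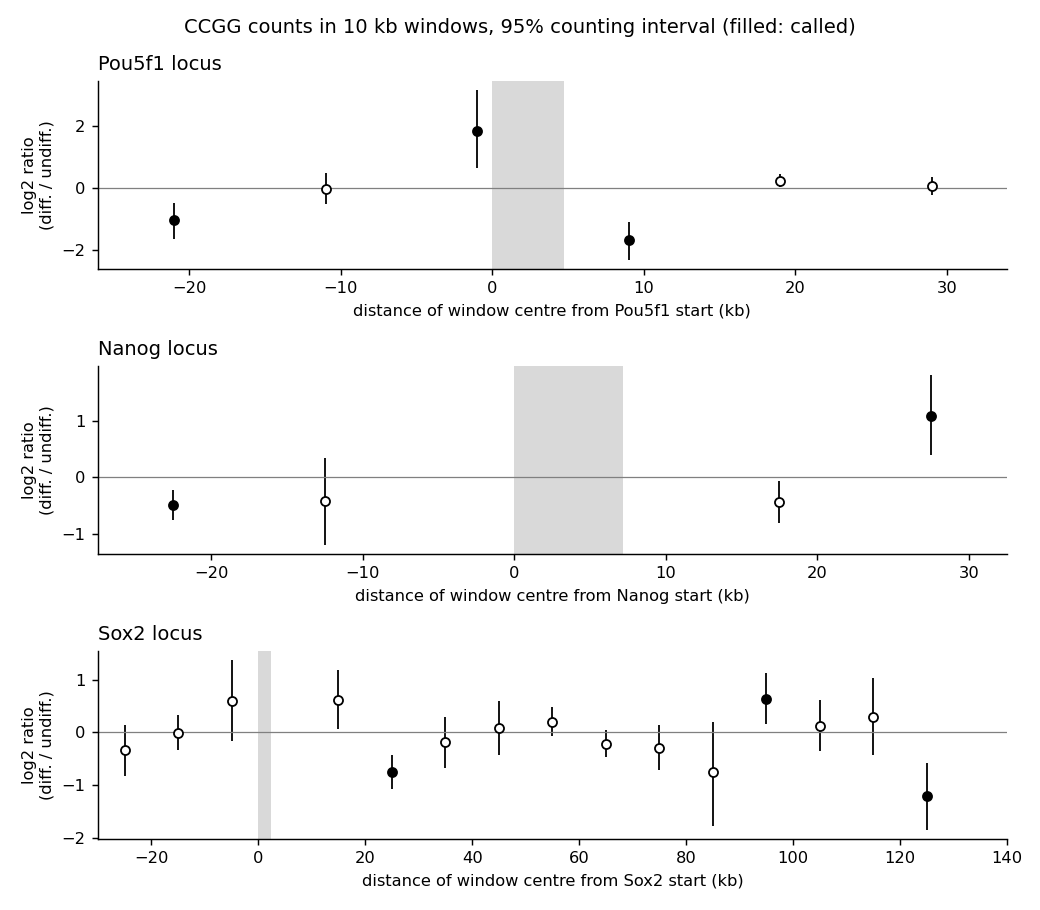
Log2 ratio of CCGG counts, differentiated over undifferentiated, in tested 10 kb windows (y axis) by distance of the window centre from the gene start in kb (x axis), with exact 95% counting intervals and called windows filled. The window over the Pou5f1 start is at 1.84 and its downstream neighbour at -1.68, and no window over the Nanog start had a listed CCGG site.

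Around Nanog, the 4 called sites were lower and outside the gene, although 2 higher and 5 lower were called with unlisted sites at 0. Upstream, the site at 122680894 had 46 and 6 counts (log2 ratio -2.85, adjusted p 2.7e-06 by Fisher's exact test) and the site at 122681794 had 41 and 8 counts. The site at 122687908 had 34 counts and was unlisted in the differentiated library, at least 8.0-fold lower (adjusted p 3.64e-05 by the exact test). These sites lie 26.6, 25.7 and 19.6 kb before the start. The 2 highest sites of the locus lay in the same stretch and were not called. The site at 122686309 had 91 and 109 counts, and the site at 122689391 had 66 and 50 counts. Downstream, the called site at 122725206 had 38 and 9 counts, while its neighbour at 122725072 had 55 and 33 counts and was not called. Upstream of Nanog as a whole, 13 sites gave a log2 ratio of -0.48 (interval -0.74 to -0.24), and downstream of the gene 11 sites gave -0.13 (-0.44 to 0.17). Of 4 tested 10 kb windows 2 were called, the farthest upstream lower, with 296 and 198 counts, and the farthest downstream higher, with 27 and 54 counts. With 5 kb or 20 kb windows no window at Nanog was called higher. All 4 of its CCGG sites lie in Slc2a3, a glucose transporter gene, and had 20, 14, 13 and 7 counts after differentiation.

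Sox2 lies within Sox2ot, a long non-coding RNA gene that overlaps it, and the called sites of its locus were spread over the flanks. To the left of Sox2, the sites at 34635266 (8 and 23 counts) and 34644162 (unlisted and 16 counts) were called higher. The latter, 5.83 kb before the start, was at least 4.25-fold higher with an adjusted p of 0.0299 by Fisher's exact test, but its adjusted p was 0.0513 under median-ratio scaling. To the right, the site at 34661856, 11.9 kb from the start, went from 9 to 28 counts and was called higher. The segment from the start to 20 kb held 3 listed sites with 47 and 73 listed counts and, with the unlisted site at 4, a log2 ratio of 0.60 (interval 0.07 to 1.15). Neither of its 10 kb windows was called, the first having too few counts to be tested.

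The window from 20 to 30 kb downstream of the Sox2 start was called lower, with 221 and 124 counts over 11 sites (log2 ratio -0.75, adjusted p 6.62e-05 by Fisher's exact test). Its sites at 34672892 (33 counts) and 34677833 (34 counts) were unlisted in the differentiated library and at least 7.76-fold and 8.0-fold lower. From 40 to 80 kb, a stretch that includes Gm3143, sites called higher and lower were interspersed. The site at 34701451 went from 41 to 81 counts (log2 ratio 1.07, adjusted p 0.0012 by the exact test) and the site at 34722530 from 5 to 22 counts. By contrast, the sites at 34713390 (32 counts) and 34708136 (17 counts) were unlisted in the differentiated library, and both were called lower. The site at 34699863, unlisted and then 15 counts, was called higher with the CCGG totals (adjusted p 0.044 by the exact test) but not under median-ratio scaling (0.0731). None of the 10 kb windows between 30 and 90 kb was called.

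The distal control region of Sox2, taken as 100 to 120 kb downstream of the start (34749995 to 34769995), did not differ detectably in its CCGG total. It had 5 listed sites with 94 counts before and 8 listed sites with 113 counts after differentiation. With unlisted sites at 4 the log2 ratio was 0.18 (interval -0.22 to 0.58). Both of its 10 kb windows were tested and neither was called. In the undifferentiated library its sites had 28, 24, 10, 7 and 25 counts, whereas the gene region had no listed CCGG site there. After differentiation the same sites had 9, 29, 13, 6 and 31 counts. Only the first of them, at 34752663, was called (log2 ratio -1.55, adjusted p 0.0245 by Fisher's exact test). The 3 sites listed only after differentiation had 10, 5 and 10 counts and were not called.

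On both sides of the distal region windows were called. From 90 to 100 kb the window was higher, with 62 and 91 counts, mainly through the site at 34742820, which went from 41 to 77 counts (log2 ratio 1.00, adjusted p 0.00315 by the exact test). No Sox2 window was called higher under median-ratio scaling. From 120 to 130 kb it was lower, with 76 and 31 counts over 3 sites, or 76 and 23 listed counts (log2 ratio -1.21, adjusted p 0.000663 by the exact test). There the sites at 34774902 and 34778663, with 36 and 22 counts, became unlisted, while the site between them had 18 and 23 counts. In all, 3 of the 15 tested windows at Sox2 were called.

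The 3 loci also differed between the libraries in the share of counts at CCAGG and CCTGG sites. At Pou5f1 these sites held 138 of 927 counts, 14.9% (95% Wilson interval 12.7% to 17.3%), before differentiation and 343 of 1058 counts, 32.4% (29.7% to 35.3%), after it, a difference of 17.5 percentage points. At Nanog they held 11.4% (9.05% to 14.3%) and 24.1% (20.5% to 28.1%), a difference of 12.7 points. At Sox2 they held 13.5% (12% to 15.2%) and 21.6% (19.7% to 23.6%), a difference of 8.04 points. Whole libraries had 18.8% and 26.2%, so the loci shared the direction seen across the genome. The median difference over windows of 60 kb was 6.71 points, and 9.84% of windows exceeded Pou5f1 and 20.9% exceeded Nanog. Over windows of 170 kb 41.5% exceeded Sox2.

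**Figure D5:**
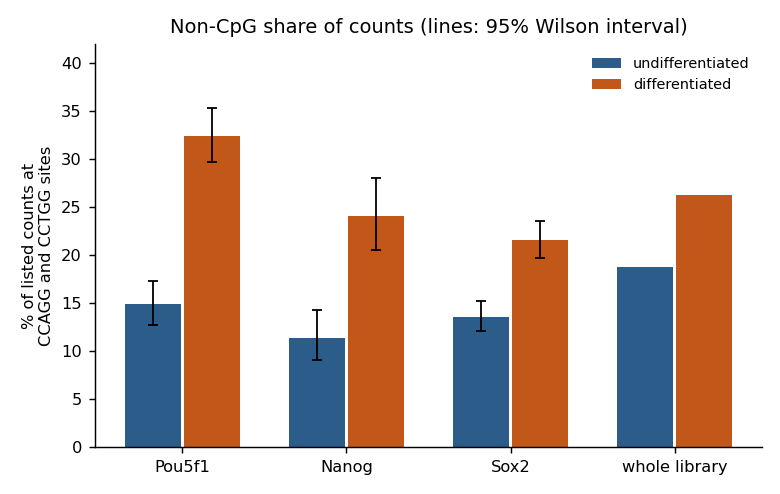
Share of listed counts at CCAGG and CCTGG sites in percent (y axis) at each locus and in the whole library, for the undifferentiated and differentiated library, with 95% Wilson intervals as lines on the loci. Pou5f1 has the highest differentiated share, 32.4%, and the intervals of the libraries do not overlap at any of the 3 loci.

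Listed non-CpG sites numbered 17 and 25 at Pou5f1, 9 and 15 at Nanog, and 22 and 40 at Sox2. Of the differentiated sites, 15 (60%), 12 (80%) and 23 (57.5%) were absent from the undifferentiated list, beside the 56.7% across the genome. Of the undifferentiated sites, 7 (41.2%), 6 (66.7%) and 5 (22.7%) were absent from the differentiated list, beside 38.3% across the genome. Restricted to sites of any motif listed in both libraries, the difference was 10.9 points at Pou5f1, 2.77 at Nanog and 0.753 at Sox2, beside 3.0 across the genome. The non-CpG sites named next had the highest counts summed over both libraries. At Pou5f1 these were a CCTGG at 35528621 with 22 and 29 counts and a CCTGG at 35530640 with 16 and 22 counts. At Sox2 a CCAGG at 34705725 had 31 and 39 counts, and a CCAGG at 34767649, in the distal control region, had 21 and 31 counts. At Nanog a CCAGG at 122682861 had 8 and 12 counts and a CCTGG at 122729579 had 13 and 7 counts. None of these 6 was called. Of 75 tested non-CpG sites 3 were called and all were lower in the differentiated library relative to the non-CpG totals, beside 4.53% lower and 1.18% higher of all non-CpG sites. They were a CCTGG at 35524529 near Pou5f1 (16 counts, then unlisted), a CCTGG at 34722715 (19 and 5 counts) and a CCAGG at 34747803 (16 counts, then unlisted), both near Sox2. Relative to the CCGG totals these lost their calls and 3 others were called, all higher and all at Pou5f1, beside 6.03% higher and 1.28% lower of all non-CpG sites. Of these, the pair at 35511313 and 35511322 is described above, and a CCAGG at 35524653 was unlisted and then had 22 counts.

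Other genes of the pluripotency network were compared through the same gene regions. Of 28 genes 17 had a strand in the promoter table and were located. The others, not analysed here, were Klf5, Tbx3, Prdm14, Sall4, Lefty1, Lefty2, Dppa2, Dppa3, Dppa4, Dppa5a and Gdf3. Of the 17, 4 had no listed CCGG site in either library, as at Nanog. They were Klf2, a Krüppel-like factor of naive pluripotency, the nuclear receptor gene Nr0b1, the zinc finger gene Zfp42, which encodes Rex1, and Tdgf1, which encodes the Nodal co-receptor Cripto. Another 13 were tested, and 3 were called higher and none lower in the differentiated library (23.1% called, beside 34.4% of all gene regions). Their median log2 ratio was 0.04, against 0.05 over all gene regions. By Fisher's exact test the called genes were Tcl1, a co-activator of Akt kinases, with 351 and 570 counts (log2 ratio 0.78, adjusted p 1.31e-13), Dnmt3l, a cofactor of the de novo DNA methyltransferases, with 340 and 420 counts (0.35, adjusted p 0.00372), and Tcf3, with 939 and 1051 counts (0.24, adjusted p 0.00163). The gene with the symbol Tcf3 lies on chromosome 10 and encodes E2A, not the network factor Tcf7l1 that once shared the name. Without it 2 of 12 were called, and the median was -0.0077. Under median-ratio scaling only Tcl1 stayed called higher, 2 genes were called lower, and the median was -0.12 against -0.11 over all gene regions. Adjusted p-values of Dnmt3l and Tcf3 were then 0.127 and 0.352 by the exact test. The highest ratio, 0.81, was at the co-repressor gene Trim28, on 1 site with 23 and 38 counts, and was not called. The lowest ratios were at Utf1 (-0.43, 60 and 42 counts), the Krüppel-like factor gene Klf4 (-0.33, 28 and 20 counts) and Otx2, a factor of the primed state (-0.18, 62 and 46 counts), and none was called.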

How the data were processed

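Each library has 1 deposited table of sites with a position, motif, alignment type and read count. Per the submitters' processing notes, FastQC 0.11.3 and Bowtie2 2.3.3 were used and the build was GRCm38. Filters are not given in the sources used here. The deposited counts are whole read numbers per site, none below 5. The deposited column headed RPM was handled as a score, since its sum exceeds 1000000. It is the count divided by 2221852 (undifferentiated) or 2446243 (differentiated), times 1000000, and gave an alternative scaling only.

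Positions were checked against RefSeq promoter sequences of GRCm38.p6. Of 11034 listed sites within them, 98.9% had the stated motif starting at the stated base. Gene positions came from the RefSeq table of the same build. Positions whose motif was not the same in both tables, 50 in all, were dropped. With unlisted sites at 4 counts, CCGG sites summing to 10 or more, and 10 kb windows and gene regions summing to 20 or more, were compared with the CCGG totals by a two-sided Fisher's exact test. Non-CpG sites were tested against the non-CpG totals. P-values were adjusted by Benjamini-Hochberg over the whole genome, with a threshold of 0.05. The tests were checked on simulated data. Locus totals carry exact binomial intervals and shares carry Wilson intervals, at 95%. Models of replicate spread could not be fitted with 1 library per state.

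Named CCGG sites are those of the gene regions, the 3 highest per locus and the 3 called sites with the largest and smallest ratios. Other sites were chosen after their values were seen. Named non-CpG sites are the 2 highest per locus, and others were chosen likewise. Of the gene list, the 3 highest and 3 lowest ratios were named. Members and lists were chosen with earlier results of these data known. Alternatives concerned scaling, unlisted sites, minimum counts, alignment type, window size and shared reads. Python 3.11.15, numpy 2.4.6, scipy 1.17.1, pandas 2.3.3 and matplotlib 3.10.9 were used.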

Additional observations from a re-analysis of the deposited data

How the results depend on the processing

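The log2 ratio of the CCGG total was -0.19 at Pou5f1 and -0.25 at Sox2 under median-ratio scaling, and with the RPM divisors it was -0.26 at Pou5f1, -0.57 at Nanog and -0.32 at Sox2. For sites listed in both libraries it was 0.061 at Sox2, and for the gene region only it was 1.84 at Pou5f1 and 0.41 at Sox2. The Nanog region has no listed CCGG site and gave no value. The lower total at Nanog kept its direction under all 6 alternatives that gave a value. Median-ratio scaling, the RPM divisors and leaving out the 1000 highest sites lowered the ratios of all 3 loci alike, so these could not have turned it. The Nanog ratio was -0.35 with unlisted sites at 0 and -0.35 among sites listed in both libraries. Called CCGG sites numbered 15 of 33 tested at Pou5f1 and 7 of 17 at Nanog with unlisted sites at 0. In that setting 38.8% of all sites were called in place of 23.5%. Among sites listed in both libraries they numbered 4 of 25 at Pou5f1 and 13 of 55 at Sox2. Fewer sites were tested there, and 23.5% of all such sites were called. Across the genome 49.3% of called sites were higher, and 31.0% with the RPM divisors. The difference in non-CpG share was 10.9, 2.77 and 0.753 points at Pou5f1, Nanog and Sox2 among sites listed in both libraries, and 21.9 points at Pou5f1 and 2.9 at Sox2 with counts of at least 10. Called windows numbered 1 of 2 tested at Nanog with 20 kb windows, where 31.6% of all windows were called. At Sox2 they numbered 5 of 23 tested with 5 kb windows, where 32.4% of all windows were called. Of these 5, 3 were higher and 2 lower, against 1 and 2 with 10 kb windows. Called non-CpG sites numbered 3 at Pou5f1 and 0 at Sox2 when scaled to the CCGG totals, an alternative added after seeing the data, as was the scaling of gene regions. The cause of these changes was not tested beyond the smaller sets named. Repeats of the 16 named called sites kept the call 82 times and lost it 4 times, all at the Sox2 sites 34699863 and 34644162 under the scalings. Repeats without a test are not counted. Sites unlisted in 1 library had no test among sites listed in both, and 34699863 had none at a summed count of at least 20. Depth limits single sites, since a site under 5 counts is unlisted. No paired analysis was possible because each state has 1 library.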

Other observations

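Neighbouring promoters within the loci gave further values. The windows of 300 bases at the start of Tcf19 and the first start of Cchcr1, genes that face away from each other, held 5 CCGG motifs each, with shared ones counted in both, and none was listed in either library. A second annotated Cchcr1 start had a window with 4, and none of these was listed. The window of Psors1c2, farther downstream of Pou5f1, held 3 CCGG motifs. The sites at 35533022 and 35533029 had 11 counts each in the undifferentiated library, lie 7 bases apart so that they can share reads, and were unlisted in the differentiated library. Neither was called (adjusted p 0.261 each by Fisher's exact test). The window of the long non-coding RNA gene Gm3143, downstream of Sox2, held 2 CCGG motifs, and both were listed in both libraries, at 34716847 with 24 and 23 counts and at 34716879 with 18 and 9 counts. The window of Gm32362, a long non-coding RNA gene that starts beside Pou5f1 and runs the other way, held the same CCGG site at 35505809 as the Pou5f1 promoter.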
